A study of Mus musculus with 18 samples.

Results

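Dietary sugars are split at the brush border of absorptive cells by membrane-bound glycosidases, taken up by hexose carriers and, for fructose, phosphorylated inside the cell. The 8 genes described here cover these steps: Sis, Lct, Mgam and Treh encode the enzymes, Slc5a1, Slc2a5 and Slc2a2 the carriers, and Khk the kinase. They were taken by gene symbol from 43346 gene rows, and all 8 were present and passed the filter of the test. They were followed over 18 RNA-seq libraries of EPCAM+ epithelial cells sorted from crypts of the small intestine (SI) and large intestine (LI) of mice. The animals carried the genotype Lgr5_eGFP_Iris_creERT2, named Lgr5eGFP-Ires-CreERT2 in the study, on a C57BL/6 background. In it, green fluorescent protein is expressed from the locus of the stem cell gene Lgr5. The animals were 8 to 20 weeks old and untreated, and this held for every group, so that no group lacked the reporter allele. At each site the cells were gated at high, medium and low GFP. The study placed these cells at the crypt centre, at its border and above the third row of cells, and the 3 gates are called centre, border and row >3 here. Each of the 6 groups held 3 replicates. The reporter is known to be silent in part of the crypts, and whether the low gate held cells with a silent reporter was not tested.

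Absorptive cells arise from Lgr5-expressing stem cells and switch on their digestive genes as they move up the crypt and onto the villus. The large intestine has no villi, and it receives little free sugar. Sucrase-isomaltase (Sis) splits sucrose and the branch points of starch fragments. Lactase (Lct) splits lactose, maltase-glucoamylase (Mgam) releases glucose from starch chains, and trehalase (Treh) splits trehalose. SGLT1 (Slc5a1) couples glucose and galactose uptake to sodium, GLUT5 (Slc2a5) carries fructose, and GLUT2 (Slc2a2) lets hexoses pass towards the blood. Ketohexokinase (Khk) performs the first step of fructose breakdown.

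In the mm10 genome the genes lie apart, on 6 chromosomes. Sis is at chr3:72888557-72967863 on the minus strand and Slc2a2 at chr3:28697903-28731359 on the plus strand. Lct is at chr1:128284756-128328318 on the minus strand. On the plus strand, Mgam is at chr6:40628831-40769123, Treh at chr9:44673233-44686305 and Slc2a5 at chr4:150119283-150144169. Slc5a1 is at chr5:33104219-33162870 and Khk at chr5:30921431-30931248, both also on the plus strand. All 8 are protein coding, and their merged exons span 1.797 kb (Khk) to 8.704 kb (Mgam). Treh shares 2 bp of exon with Phldb1 on the opposite strand, while the other 7 share no exonic base with another gene. Mgam has a near copy beside it, Mgam2-ps, so reads could have been split between the pair.

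The bases just upstream of the 4 glycosidase genes are shown. These were the members that passed the threshold between the sites in row >3 with all libraries in the fit. Each run holds the 250 bases before the transcript start, read 5′ to 3′ on the strand of the gene (RefSeq, GRCm38.p6). Capitals mark matches to the letters of 3 motifs of factors known from absorptive cells, searched on both strands, and no match overlapped another. The motifs were AGATAA for GATA factors, TTTATNG for CDX and CAAAGTNCA for HNF4.
Sis (chr3:72967864-72968113, minus strand): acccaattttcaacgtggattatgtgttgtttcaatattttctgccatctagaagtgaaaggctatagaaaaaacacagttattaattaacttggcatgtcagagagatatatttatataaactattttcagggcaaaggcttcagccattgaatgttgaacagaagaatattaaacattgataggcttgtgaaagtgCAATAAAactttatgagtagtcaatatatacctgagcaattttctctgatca
Lct (chr1:128328319-128328568, minus strand): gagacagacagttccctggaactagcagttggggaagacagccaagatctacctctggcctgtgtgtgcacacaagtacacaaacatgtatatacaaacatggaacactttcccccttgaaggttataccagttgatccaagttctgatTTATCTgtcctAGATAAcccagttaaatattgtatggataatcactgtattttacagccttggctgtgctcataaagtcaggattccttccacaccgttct
Mgam (chr6:40628581-40628830, plus strand): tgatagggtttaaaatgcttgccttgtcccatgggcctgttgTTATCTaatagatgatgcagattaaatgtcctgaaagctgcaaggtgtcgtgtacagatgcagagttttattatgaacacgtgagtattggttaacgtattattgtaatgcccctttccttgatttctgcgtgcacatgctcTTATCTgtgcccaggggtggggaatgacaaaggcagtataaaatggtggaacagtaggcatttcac
Treh (chr9:44672983-44673232, plus strand): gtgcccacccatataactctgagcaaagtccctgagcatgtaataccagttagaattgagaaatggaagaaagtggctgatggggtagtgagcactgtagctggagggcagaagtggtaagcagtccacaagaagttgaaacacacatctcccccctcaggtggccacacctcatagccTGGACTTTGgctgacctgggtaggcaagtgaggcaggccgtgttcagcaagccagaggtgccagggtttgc

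The Sis run held a CDX match with its first base 52 bases upstream, on the opposite strand. The Lct run held a pair of GATA matches at 101 and 90 bases, and the Mgam run held GATA matches at 208 and 66 bases. Treh had an HNF4 match at 71 bases. The windows of the 4 other members, Slc5a1, Slc2a5, Slc2a2 and Khk, held none of these letters. Of 32851 windows of 300 bases around mouse transcript starts (250 before and 50 after), 11.2% held the GATA letters, 10.9% the CDX letters and 1.41% the HNF4 letters. A match describes the letters of the window and shows no binding.

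Library totals ran from 8312093 to 31940965 reads assigned to genes, with a median of 21934852. Levels are given as normalised counts, the deposited counts divided by 1 size factor per library. Fold changes are on the log2 scale with their standard error (SE), and a gene is said to pass when its edgeR quasi-likelihood p, adjusted by Benjamini-Hochberg over 26717 genes, was under 0.05. Bulk libraries cannot tell fewer cells of a type from less RNA per cell. Lgr5 fell along the gates at both sites. In the SI it was at 5252, 4191 and 2434 in centre replicates 1 to 3, at 1610.3, 2028 and 157 at the border, and at 169.6, 279.6 and 28.1 in row >3. In the LI the 3 ranges were 2176 to 2575, 1184 to 1676 and 134 to 466.

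SI replicate 3 stood apart from SI replicates 1 and 2 at all 3 levels, and the members' main comparisons are therefore also given without it. Its libraries held LI markers at LI levels. Car1, the carbonic anhydrase of colonic absorptive cells, was at 1668, 22796 and 38981 at centre, border and row >3 of replicate 3, against at most 215 in the 6 other SI libraries. Over the 7 or 8 LI markers with a usable level, the median was 83.7%, 204% and 181% of the LI mean in replicate 3, against 5.49% to 16.8% in the other SI libraries. Hoxb13 and Hoxd10 were at 0 in every SI library. In every LI library Hoxd10 was at 0 as well and Hoxb13 was low, so neither gene tells the sites apart here. The SI factor Gata4 was at 141, 148 and 129.6 in the replicate 3 libraries, against 134 to 304 in the 6 other SI libraries and at most 1.18 in the LI. The border library of replicate 3 also had less Lgr5 (157) than the row >3 libraries of replicates 1 and 2. The part of these differences in the results below was not tested beyond leaving the libraries out. Whether these 3 libraries hold SI cells alone cannot be told from the files, and every SI over LI value of the full set includes them.

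**Figure D1:**
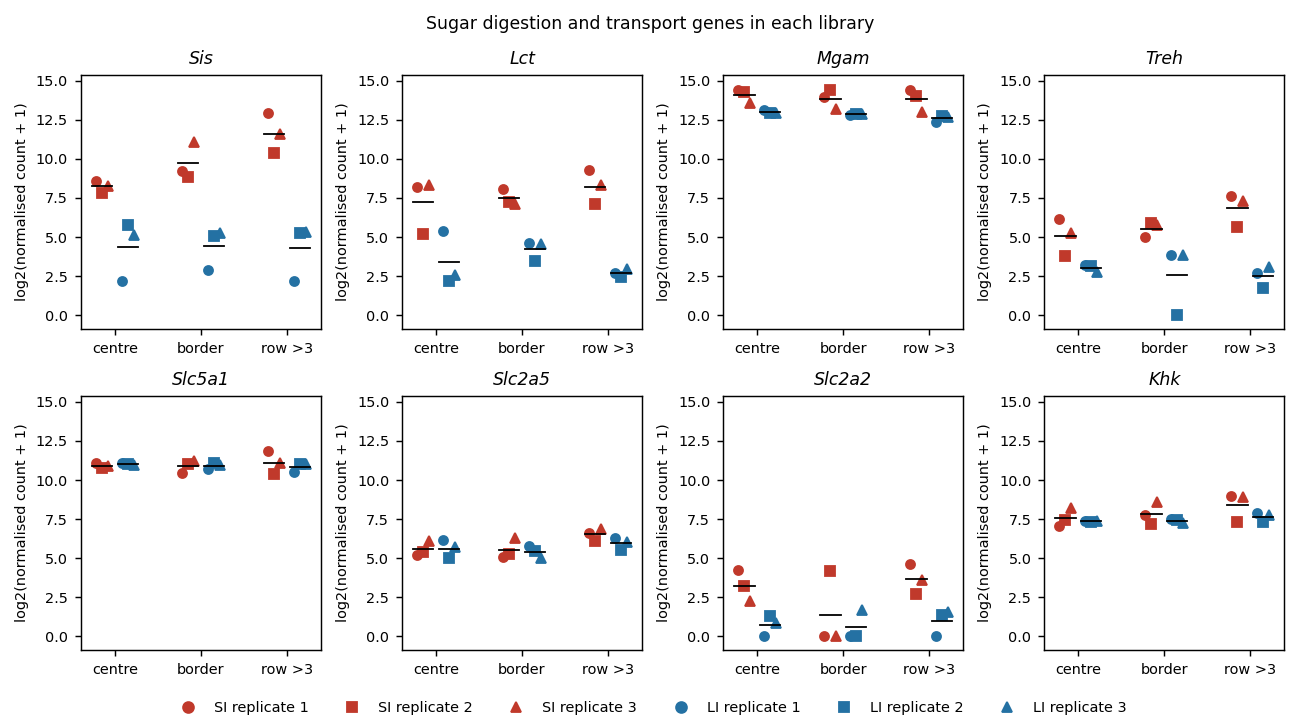
Level of each of the 8 genes as log2(normalised count + 1), by crypt level, with 1 symbol per library (red, SI; blue, LI; shape, replicate number) and a bar at the mean of the 3 log2 values. Sis, Lct, Mgam and Treh sit higher in the SI, Slc5a1, Slc2a5 and Khk lie at similar heights at both sites, and Slc2a2 is low, near 0 in the LI and in 2 SI border libraries and higher in the other SI libraries.

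Per kilobase of exon, Mgam was the highest of the 8 genes in every group and Slc2a2 the lowest. Mgam averaged 2065 ± 570.4 normalised counts per kb (SD, n = 3) in the SI centre and 950.3 ± 87.1 in the LI centre. Slc5a1 ranked 2 in all 6 groups, from 452 ± 86.1 in LI row >3 to 589 ± 302 in SI row >3. Sis ranked 4 in the SI centre at 41.7 ± 10.97 per kb and 3 in SI row >3 at 539 ± 441, where its range was wide. In the LI it stayed at 3.43 to 4.03 per kb and ranked 5 or 6. Slc2a2 did not exceed 2.34 ± 1.64 per kb in any group.

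Sis, the sucrase gene, separated the sites without overlap. In the SI centre it was at 392.2, 228 and 312 normalised counts in replicates 1 to 3, at the border at 607, 451 and 2150.2, and in row >3 at 7685, 1319.7 and 3067. In the LI it was at 3.53, 53.2 and 33.5 in the centre, at 6.42, 32.4 and 38.0 at the border, and at 3.64, 38.0 and 39.6 in row >3. All 9 SI libraries were above all 9 LI libraries, and within the LI replicate 1 was the lowest at each level. The SI over LI difference was 3.20 ± 0.95 (log2 ± SE) in the centre, which did not pass (edgeR adjusted p = 0.120). It was 5.33 ± 1.02 at the border (adjusted p = 0.0213) and 7.13 ± 1.06 in row >3 (adjusted p = 0.00216). Without SI replicate 3 the differences were 3.20, 4.29 and 7.34, with adjusted p = 0.0703, 0.0326 and 5.34e-04. The border call was lost when any 1 of the 3 LI border libraries was left out (4.86, 5.48 and 5.87 without replicates 1 to 3, adjusted p = 0.0758, 0.0965 and 0.0941). A fit of only the 2 groups compared kept the size of the border and row >3 differences (5.31 and 7.17), and neither passed in it (adjusted p = 0.110 and 0.0694). The centre difference of Sis passed in 2 of 16 alternatives, among them DESeq2 (3.36, DESeq2 adjusted p = 0.0145).

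Lct, the lactase gene, was also higher in the SI. The SI libraries were at 297, 35.9 and 316 in the centre, at 272, 152 and 139.9 at the border, and at 616, 136 and 320.0 in row >3. The LI libraries were at 41.2, 3.64 and 4.91 in the centre, at 23.8, 9.98 and 22.3 at the border, and at 5.47, 4.56 and 6.60 in row >3. In the centre the ranges overlapped, since SI replicate 2 was below LI replicate 1, whereas at border and row >3 every SI library was above every LI library. The difference was 3.88 ± 0.84 in the centre (edgeR adjusted p = 0.0246) and 5.95 ± 0.95 in row >3 (adjusted p = 0.00151). At the border it was 3.15 ± 0.82 and did not pass (adjusted p = 0.0653), but it passed with the replicate number as a block (3.38, adjusted p = 5.31e-04). Without SI replicate 3 the 3 differences were 3.61, 3.31 and 6.08, with adjusted p = 0.0485, 0.0883 and 0.00263 for centre, border and row >3. With 1 library left out at a time, the centre difference ran from 3.34 to 5.57. The centre difference lost its call without SI replicate 1, LI replicate 2 or LI replicate 3 of the centre (adjusted p = 0.0899, 0.115 and 0.149), in a fit of only the groups compared (adjusted p = 0.154) and under an older version of the quasi-likelihood fit (adjusted p = 0.0781).

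Mgam was abundant at both sites and showed the smallest difference of the 4 enzymes. The SI libraries were at 21550.4, 20062 and 12304 in the centre, at 16070.2, 21689 and 9251 at the border, and at 21594, 16822 and 8103 in row >3. The LI libraries were at 9142, 7908 and 7764, then at 7322, 7471 and 7594, and in row >3 at 5269, 6821 and 6581. The sites did not overlap at any level, but SI replicate 3 was the lowest SI library each time, at 0.591, 0.490 and 0.422 of the mean of replicates 1 and 2, nearer to the LI. The difference was 1.06 ± 0.32 in the centre (edgeR adjusted p = 0.109), 1.001 ± 0.32 at the border (adjusted p = 0.143) and 1.25 ± 0.32 in row >3 (adjusted p = 0.0388). It passed at all 3 levels when SI replicate 3 was left out, at 1.31 ± 0.15, 1.30 ± 0.15 and 1.62 ± 0.15 (adjusted p = 7.10e-07, 1.12e-06 and 2.37e-08). The row >3 call of the full set was weak: it held in 1 of the 6 fits that each left out 1 row >3 library, where adjusted p reached 0.244, and in 8 of all 16 alternatives. The near copy Mgam2-ps differed in row >3 as well, by 1.43 ± 0.30 (adjusted p = 0.00745).

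Treh, the trehalase gene, was low throughout and higher in the SI. The SI libraries were at 69.7, 12.9 and 37.3 in the centre, at 30.7, 58.3 and 52.6 at the border, and at 196, 48.2 and 159 in row >3. The LI libraries were at 8.23, 8.02 and 5.73, then at 13.8, 0 and 13.4, and in row >3 at 5.47, 2.28 and 7.54. At each level every SI library was above every LI library. The difference was 4.67 ± 0.72 in row >3 (edgeR adjusted p = 2.94e-04). It was 2.40 ± 0.75 in the centre and 2.23 ± 0.73 at the border, and neither passed (adjusted p = 0.0996 and 0.129). In the blocked fit over all 18 libraries, where a pairing between the sites was not shown, the border difference of Treh passed (2.45, adjusted p = 0.0298). With SI replicate 3 left out it was 2.51, 2.19 and 4.62 from centre to row >3, with adjusted p = 0.0678, 0.180 and 1.06e-04.

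The carriers Slc5a1 and Slc2a5 and the kinase Khk did not pass between the sites at any level. Slc5a1 was at 2164, 1732 and 1909 in the SI centre, at 1388, 2057 and 2346 at the border, and at 3772, 1334 and 2146 in row >3. In the LI it was at 2174, 2111 and 1974, then at 1637, 2141 and 2011, and in row >3 at 1447, 2040.0 and 2078. The sites overlapped at every level, and the SI median over 9 libraries (2057) lay close to the LI median (2040.0). The SI over LI difference in Slc5a1 was -0.16 ± 0.28 in the centre, with a 95% interval of -0.77 to 0.44, and 0.32 ± 0.28 in row >3, with an interval of -0.28 to 0.93 (edgeR adjusted p = 0.847 and 0.688). At the border it was -0.05 ± 0.28 (adjusted p = 1). Without SI replicate 3 the differences were -0.12, -0.19 and 0.45 from centre to row >3, and none passed. The intervals of the full set exclude a 2-fold difference of either sign. Without SI replicate 3 the SE in row >3 was larger (0.33). No interval was computed for that fit, so the exclusion is given for the full set only.

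Slc2a5, the fructose carrier, was at 35.7, 40.5 and 68.1 in the SI centre, at 33.1, 37.6 and 77.8 at the border, and at 97.8, 68.7 and 117 in row >3. In the LI it was at 70.6, 30.6 and 50.7, then at 53.2, 43.7 and 30.5, and in row >3 at 78.3, 44.8 and 63.2. The ranges overlapped at each level, and SI replicate 3 was the highest SI library each time. The differences were -0.10 ± 0.43, 0.27 ± 0.46 and 0.54 ± 0.40 from centre to row >3 (edgeR adjusted p = 1, 0.916 and 0.619). Their 95% intervals reached from -1.04 to 0.85 in the centre and from -0.34 to 1.41 in row >3, so a 2-fold difference lay within them. Leaving out SI replicate 3 gave -0.37, -0.25 and 0.44, and none passed.

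Khk was at 131, 175 and 292 in the SI centre, at 213, 148 and 382 at the border, and at 494, 158 and 476 in row >3. In the LI it kept to a narrow band, at 167, 157 and 164, then at 179, 175 and 153, and in row >3 at 239, 159 and 214. The sites overlapped at every level. The difference was 0.24 ± 0.39 in the centre, 0.52 ± 0.39 at the border and 0.83 ± 0.38 in row >3 (edgeR adjusted p = 0.843, 0.654 and 0.287). With SI replicate 3 left out, the libraries with the most Khk in centre and border, it was -0.11, 0.02 and 0.69 (adjusted p = 0.972, 1 and 0.201).

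Slc2a2, the gene of GLUT2, was close to the limit of detection, and its raw counts are given. In replicates 1 to 3 the SI centre held 22, 9 and 4 reads, the border 0, 13 and 0, and row >3 35, 7 and 7. The LI held 0, 2 and 1 reads in the centre, 0, 0 and 3 at the border, and 0, 2 and 2 in row >3. Read counts above 3 were seen only in the SI, in 7 of its 9 libraries. Summed over the libraries of a level, the SI to LI ratio was 11.8 in the centre (35 against 3 reads, 95% Clopper-Pearson interval 3.73 to 60.2), 6.53 at the border (13 against 3, 1.80 to 35.7) and 12.6 in row >3 (49 against 4, 4.63 to 48.2). These intervals cover counting error only, and a library with 0 reads could still hold up to 3. Across libraries the gene did not pass at any level (edgeR adjusted p = 0.203, 0.543 and 0.0973). It passed in centre and row >3 when SI replicate 3 was left out (adjusted p = 0.0486 and 0.0272).

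**Figure D2:**
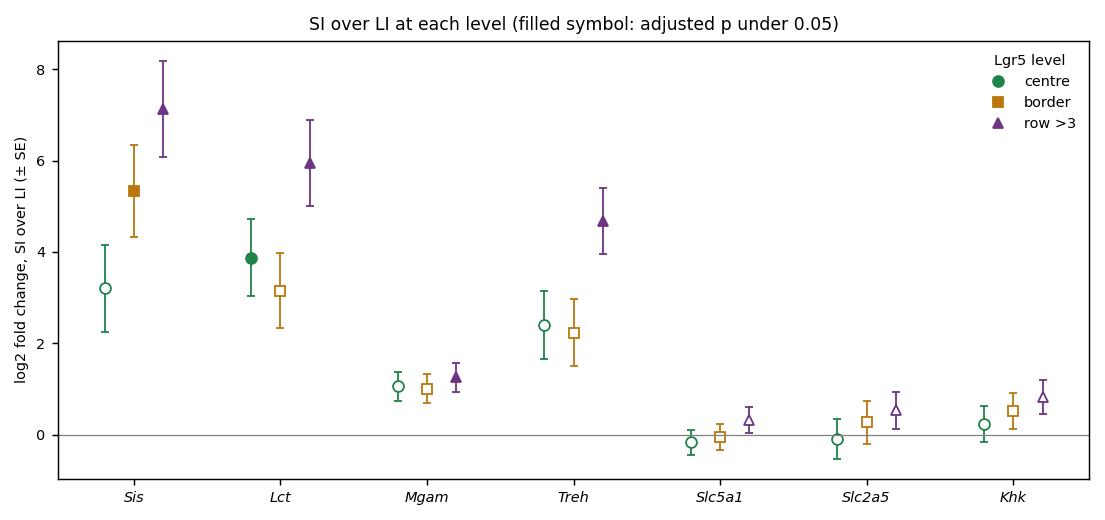
SI over LI log2 fold change with its SE (edgeR, 3 libraries per group) for 7 genes at centre (circle), border (square) and row >3 (triangle), where a filled symbol has an adjusted p under 0.05. The 4 glycosidases lie between 1.001 and 7.13, with Sis, Lct and Treh highest in row >3, and the other genes lie between -0.16 and 0.83.

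Counted over the 8 members, 1 was higher in the SI in the centre (Lct), 1 at the border (Sis) and 4 in row >3 (Sis, Lct, Mgam and Treh), and none was lower at any level. Over all genes tested, 1.19% were higher in the centre, 1.15% at the border and 2.76% in row >3. Groups that did not overlap, with the SI higher, were found for 4 members in the centre, 4 at the border and 5 in row >3, where the shares over all genes were 9.59%, 7.34% and 10.2%. The median of the 8 differences was 1.73, 1.62 and 2.35, beside a median of 0 over all genes. At the border the replicate block over all 18 libraries called Sis, Lct and Treh, and 1141 of all genes. DESeq2 called the 4 glycosidases at every level, and over all genes it called 1229, 1212 and 1682 from centre to row >3, against 532, 468 and 1092 by edgeR. Without SI replicate 3 the calls were Lct, Mgam and Slc2a2 in the centre, Sis and Mgam at the border, and these 4 together with Treh in row >3. Calls over all genes rose as well, to 2854, 2121 and 3184 of 26181 genes.

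Along the SI crypt, Sis rose from centre to row >3. In row >3 it was 19.6, 5.78 and 9.82 times its centre level in replicates 1 to 3, and the groups did not overlap. The change was 3.70 ± 0.85 (edgeR adjusted p = 0.0125), and 3.86 ± 0.85 without replicate 3 (adjusted p = 0.0114). It was 3.51 without centre replicate 2 and 2.82 without row >3 replicate 1, and neither passed (adjusted p = 0.0603 and 0.0521). A fit of only the groups compared gave 3.71 and did not pass either (adjusted p = 0.0510). At the border the ratios to the centre were 1.55, 1.97 and 6.88, so that replicate 3 was far ahead of the others. That step was 1.80 ± 0.80 and did not pass (adjusted p = 0.543), and it was 0.71 without replicate 3. From border to row >3 the change was 1.89 ± 0.79 (adjusted p = 0.304), with ratios of 12.7, 2.93 and 1.43, and it was 3.14 without replicate 3 (adjusted p = 0.0564). With the replicate number as a block this last step passed, at 1.78 (adjusted p = 0.0391).

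Treh was the other member that passed along the SI crypt. Its row >3 levels were 2.81, 3.74 and 4.27 times the centre levels of the same replicate number, although the groups overlapped, since centre replicate 1 (69.7) was above row >3 replicate 2 (48.2). The change was 1.72 ± 0.52 (edgeR adjusted p = 0.0286). It also passed with the replicate block (1.71, adjusted p = 0.00163). It did not pass without SI replicate 3 (1.55, adjusted p = 0.0671), with DESeq2 (adjusted p = 0.0592), with library size only (adjusted p = 0.0565), with only the groups compared (adjusted p = 0.142) or with the older quasi-likelihood fit (adjusted p = 0.158). Leaving out 1 library also ended the call for replicates 2 and 3 of the centre (adjusted p = 0.151 and 0.0629) and replicates 1 and 3 of row >3 (adjusted p = 0.227 and 0.0613). From border to row >3 it was 1.44 ± 0.54 (adjusted p = 0.190), and 1.41 without replicate 3 (adjusted p = 0.265).

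Slc2a5 and Khk were nominally higher in SI row >3 but did not pass after adjustment. Slc2a5 was 2.74, 1.70 and 1.72 times its centre level in replicates 1 to 3, and its row >3 libraries were all above its centre libraries. Its change was 0.96 ± 0.41 (edgeR adjusted p = 0.146), and 1.14 without SI replicate 3 (adjusted p = 0.0783), and with the replicate block it passed (1.03, adjusted p = 0.0174). Khk was 3.77, 0.903 and 1.63 times its centre level, so that replicate 2 did not share the rise of replicates 1 and 3. Its change was 0.92 ± 0.38 (adjusted p = 0.131). Khk passed with the replicate block (0.91, adjusted p = 0.0147) and without SI replicate 3 (1.11, adjusted p = 0.0379).

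Mgam, Slc5a1 and Lct showed no change past the threshold along the SI crypt. For Mgam the row >3 to centre ratios were 1.002, 0.838 and 0.659, and the change was -0.21 ± 0.31 with a 95% interval of -0.90 to 0.47 (edgeR adjusted p = 0.800). For Slc5a1 they were 1.74, 0.770 and 1.12, and the change was 0.33 ± 0.28 with an interval of -0.28 to 0.93 (adjusted p = 0.576). For Lct they were 2.07, 3.78 and 1.012, and the change was 0.73 ± 0.62 (adjusted p = 0.582), with an interval of -0.63 to 2.09 that holds a 4-fold rise. The changes of Mgam, Slc5a1 and Lct without SI replicate 3 were -0.11, 0.40 and 1.16, and none passed. The levels of Slc5a1 in replicates 1 and 2 moved in opposite directions from border to row >3, by ratios of 2.72 and 0.649.

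**Figure D3:**
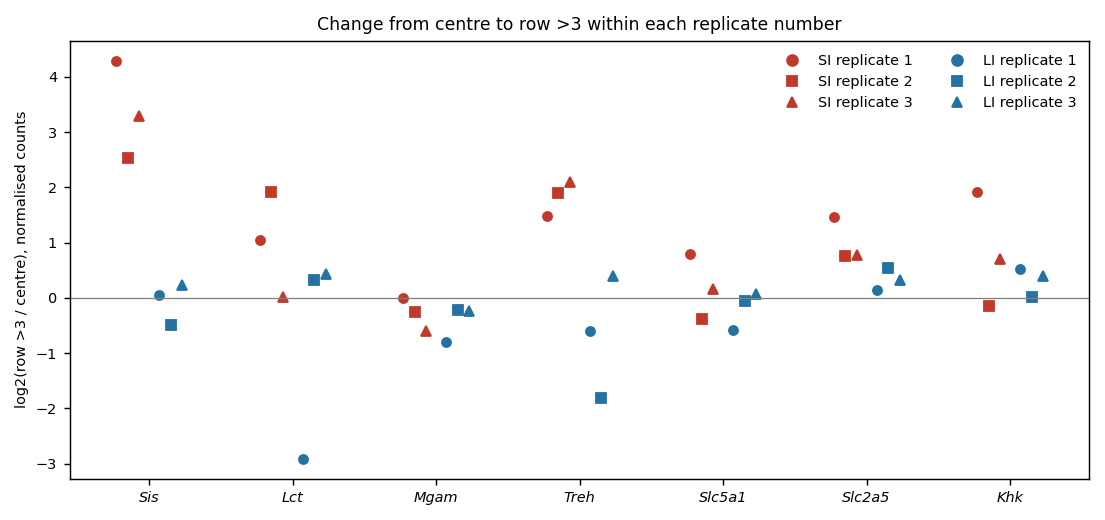
Change from centre to row >3 as the log2 ratio of normalised counts within each replicate number, for 7 genes in the SI (red) and LI (blue). Sis, Lct, Treh and Slc2a5 lie above 0 in all 3 SI replicates, Sis by 5.78 to 19.6 times, and in the LI no gene apart from Slc2a5 and Khk lies above 0 in all 3.

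Of the 8 members, 2 passed from centre to row >3 in the SI (Sis and Treh, both higher), beside 7.35% of all genes higher. These counts leave out the pairing of libraries within the site. With the replicate block within the site 4 passed (Sis, Treh, Slc2a5 and Khk, all higher), beside 3309 of 26717 genes higher. Groups that did not overlap, with row >3 higher, were found for 2 members (Sis and Slc2a5), beside 12.8% of all genes. None passed from border to row >3 or from centre to border, beside 1.61% and 0.0112% of all genes. With the block Sis passed from border to row >3, beside 2612 genes over all, and no member from centre to border, beside 620. At an unadjusted p under 0.05 these steps held 2 members and 1 member, beside 13.6% and 8.98% of all genes, and DESeq2 called no member in either, of 1300 and 209 genes called over all. From centre to border only Sis was without overlap, beside 4.15% of all genes higher. The absorptive cell markers rose over the same step: 11 of 17 were higher in row >3 than in the centre and none lower, while 7 of 9 stem cell markers were lower. The summed level of the 17 absorptive markers was 119518, 45635 and 76250 in SI row >3 replicates 1 to 3, the same order of replicates as for Sis. At the border it was 42456, 26150.1 and 63311, again the order of Sis. In the centre it was 23979, 15933 and 26920.5, where replicate 3 was highest, while Sis was highest in replicate 1, and in the LI it stayed between 17958 and 28203. Goblet cell markers moved too, with 6 of 8 higher and 1 lower in SI row >3. Of the tuft cell markers 2 of 9 were higher there, and 8 without SI replicate 3, and of the enteroendocrine markers 1 of 12, and 4 without it. What part these cell types had in the change of Sis was not tested.

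In the LI no member passed between levels, beside 0.00% of all genes from centre to border, 0.0187% from centre to row >3 and 0.00% from border to row >3. Over the 7 members other than Slc2a2 and these 3 comparisons, the 21 changes ran from -1.80 to 0.56, and none had an unadjusted p under 0.05, beside 1.38%, 6.96% and 3.72% of all genes. DESeq2 called no member either. Mgam fell in step in all 3 LI replicates, to 0.576, 0.863 and 0.848 of its centre level in row >3. Its groups did not overlap, which held for 14.7% of all genes in either direction, and the change of -0.40 ± 0.31 did not pass (edgeR adjusted p = 0.938).

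Whether the change along the crypt differed between the sites was asked with an interaction term, and no gene passed for either step, members included (0.00% of 26717 genes by edgeR). The change of Sis from centre to row >3 was larger in the SI by 3.93 ± 1.37 (edgeR adjusted p = 0.531, unadjusted p = 0.0140). For Treh the difference was 2.27 ± 1.20 (adjusted p = 0.797) and for Lct 2.07 ± 1.45 (adjusted p = 0.951). With 1 library left out at a time, Lct ran from 0.38 to 2.61, Treh from 1.82 to 2.96 and Sis from 3.05 to 4.38. None of these passed. The differences of Sis, Treh and Lct were 4.14, 2.11 and 2.47 without SI replicate 3 (adjusted p = 0.274, 0.698 and 0.836). Over all genes 1800 (6.74%) had an unadjusted p under 0.05 in this interaction, and DESeq2 called 151 genes but none of the 8. The replicate block within each site gave 620 genes and the fit without SI replicate 3 gave 857, again with no member. For centre to border the counts were 708 (2.65%) by unadjusted p, 2 by DESeq2, 0 with the block and 42 without SI replicate 3, with no member among them.

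Because Sis rose and Mgam did not, their ratio changed within the SI. Per kb of exon, Mgam was 47.1, 75.3 and 33.8 times Sis in SI centre replicates 1 to 3, and 22.7, 41.2 and 3.69 times at the border. In row >3 it was 2.41, 10.9 and 2.27 times. In the LI the ratio was never below 127 and reached 2222 in centre replicate 1, where Sis was at 3.53 normalised counts. As a share of the 4 glycosidases per kb, Sis made up 1.30% to 2.75% in the SI centre, 8.21% to 28.0% in SI row >3 and at most 0.775% in the LI. Both genes were read from the same library here, so the ratio does not depend on the scaling between libraries.

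**Figure D4:**
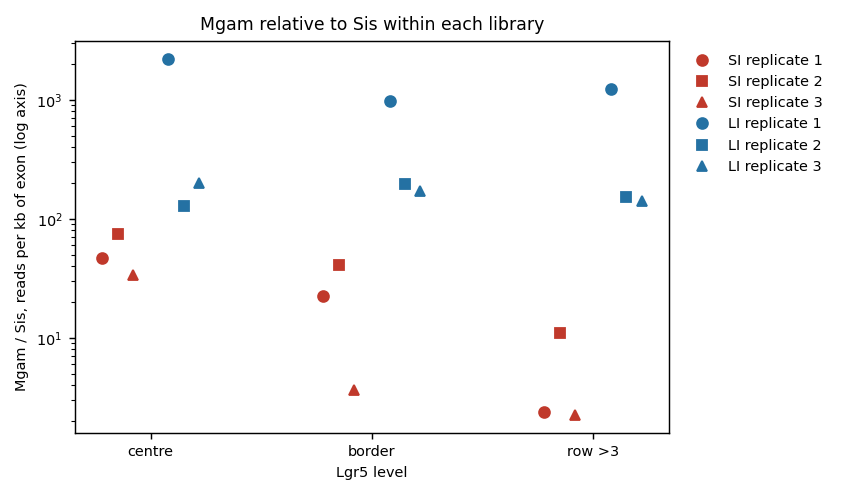
Mgam relative to Sis as the ratio of reads per kb of exon in each library (log axis), by crypt level (red, SI; blue, LI; shape, replicate number). The SI ratios run from 75.3 in the centre to 2.27 in row >3, and all 9 LI ratios are at 127 or above.

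SI replicate 3 did not move all members the same way. Mgam was below both other SI replicates at each level. Slc2a5 was above both at each level, at 1.79, 2.204 and 1.41 times their mean, and Khk at centre and border, at 1.91 and 2.12 times. Sis was between them in centre and row >3 and at 4.07 times their mean at the border. Treh lay between replicates 1 and 2 at all 3 levels. Sis, Lct, Mgam and Treh of replicate 3 were above every LI library of the same level.

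**Figure D5:**
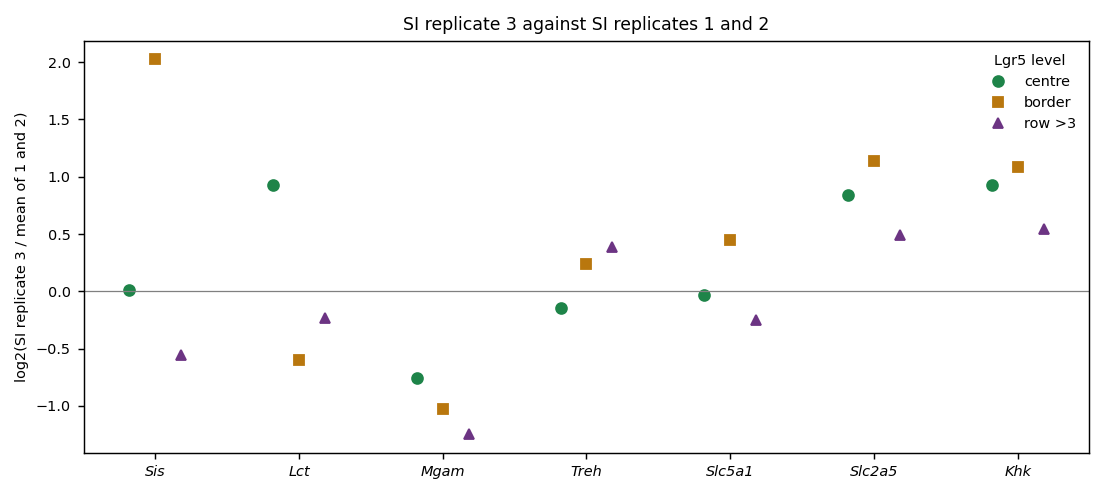
Level of 7 genes in SI replicate 3 relative to the mean of SI replicates 1 and 2, as a log2 ratio of normalised counts at each crypt level. Mgam lies below 0 at all 3 levels (0.591, 0.490 and 0.422 of the mean) and Slc2a5 and Khk above 0 at all 3.

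Other hexose carriers were followed over the same groups, in a list that also holds carriers of urate and lactate. Counts of this and the next lists stand beside the calls over all 26717 genes. Between the sites these were 532, 468 and 1092 from centre to row >3, of which 317, 308 and 738 were higher. Without SI replicate 3 they were 2854, 2121 and 3184 of 26181, of which 1180, 968 and 1781 were higher. From centre to row >3 in the SI 3518 were called, 1964 of them higher, against 4465 and 2610 without it. Of the 17 carriers in this list, none was higher and 2 lower in the SI centre than in the LI centre. None passed at the border, and 5 were higher in row >3, those of urate and lactate included. Slc2a1, the widespread glucose carrier GLUT1, was lower in the SI centre, at 267, 238 and 321 against 899.8, 566 and 565 (-1.35 ± 0.23, edgeR adjusted p = 0.00222). Within the SI it rose from centre to row >3, to 696, 674 and 815 (1.41 ± 0.23, adjusted p = 2.91e-04). Slc2a9, a urate carrier, was at 371, 212 and 209 in SI row >3 against 72.9, 86.5 and 80.2 in the LI (1.67 ± 0.36, adjusted p = 0.00741). Slc5a12, a lactate carrier of the SGLT family, was at 58.1, 11.8 and 31.2 in SI row >3 and at 0 in all 3 LI libraries there (adjusted p = 0.00528). Slc5a4b, a further member of that family, was at 54.0, 11.1 and 45.3 against 0, 6.83 and 1.89 (3.42 ± 0.81, adjusted p = 0.0131). From centre to row >3 in the SI, 4 of the 17 rose and none fell. With SI replicate 3 left out, 1 was higher and 3 lower in the centre, 1 lower at the border and 6 higher in row >3. The calls of Slc2a1, Slc2a9, Slc5a12 and Slc5a4b named above held.

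The enzymes downstream of the carriers were also compared between the sites. Among 11 fructose and gluconeogenic enzymes, 1 was higher and 1 lower in the SI centre, 1 higher at the border, and 1 higher and 1 lower in row >3. The one that was higher each time was Tkfc, the kinase that acts on glyceraldehyde downstream of Khk in the same pathway. Tkfc was at 579, 489.9 and 591 in the SI centre against 195, 203 and 290.4 in the LI centre. Its difference was 1.21 ± 0.25 in the centre, 1.13 ± 0.25 at the border and 1.23 ± 0.25 in row >3 (edgeR adjusted p = 0.0126, 0.0216 and 0.00525). Akr1b3, which reduces glucose to sorbitol, was lower in the SI centre by 1.12 ± 0.21 on the log2 scale (adjusted p = 0.00592). Leaving out SI replicate 3 gave 1 higher and 3 lower of the 11 in the centre, 1 and 2 at the border, and 2 and 2 in row >3, and the calls of Tkfc and Akr1b3 held. G6pc, which releases free glucose from its phosphate, was at 0 in all 9 LI libraries and at most at 42.4 in the SI.

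Among 13 hexokinases and upper glycolytic enzymes, none passed in centre or border, and 3 were higher in SI row >3 than in LI row >3. Hkdc1, a hexokinase-related gene, was at 2689.9, 1159 and 1642 there against 273, 183 and 210.3 (2.99 ± 0.52, edgeR adjusted p = 0.00436). Pfkp, a phosphofructokinase, was at 3989, 2410.4 and 1928 against 1161, 906 and 959 (1.40 ± 0.30, adjusted p = 0.0101). From centre to row >3 within the SI, 5 of these 13 rose and none fell, against 6 and 1 without SI replicate 3. Pfkp rose by 2.48 ± 0.31 (edgeR adjusted p = 7.34e-05) and Hkdc1 by 2.63 ± 0.51 (adjusted p = 0.00338). Leaving out SI replicate 3 gave 1 higher and 4 lower of these 13 in the SI centre against the LI centre, 4 lower at the border, and 3 higher and 4 lower in row >3, and the calls of Hkdc1 and Pfkp held. For the 7 galactose enzymes it gave 5, 2 and 2 lower from centre to row >3. Of these 7 galactose enzymes, 2 rose from centre to row >3 within the SI, and 3 without SI replicate 3. Between the sites, 1 of the 7 was lower in the SI centre and none passed at border or row >3. Of 11 other glycosidases tested, none passed in the centre, 1 was lower at the border, and 1 was higher and 1 lower in row >3. Gaa, the lysosomal maltase, was the lower one both times. Of these 11, 1 was higher in centre and in row >3 and 2 were lower at each level without SI replicate 3.

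Of the sugar-sensing genes, 8 of 10 could be tested. Mlxipl, which encodes the glucose-responsive factor ChREBP, was higher in the SI in the centre (1.06 ± 0.23, edgeR adjusted p = 0.0152) and in row >3 (0.91 ± 0.23, adjusted p = 0.0235). Within the SI, Mlxipl fell from 4978, 5193 and 4917 in the centre to 2881, 2764 and 2402 in row >3 (-0.90 ± 0.23, adjusted p = 0.00952), opposite to Sis and Treh, while its partner Mlx rose (1.34 ± 0.27, adjusted p = 0.00167). Without SI replicate 3 the change of Mlxipl was -0.84 and did not pass (adjusted p = 0.0614). Arrdc4, a known target of ChREBP, rose by 0.93 ± 0.19 over the same step (adjusted p = 0.00200). The rises of Mlx and Arrdc4 passed without SI replicate 3 as well (1.64 and 1.05, adjusted p = 8.08e-05 and 7.18e-04). Of the 8 genes, 3, 2 and 2 were then lower in the SI from centre to row >3, and 1 higher at each level.

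Among 16 regulators of enterocyte genes, 2 were higher and 1 lower in the SI centre, 2 higher at the border and 3 higher in row >3. Gata4 and Gata5, the factors whose letters were marked upstream of Lct and Mgam, were the higher ones at each level. Gata5 differed by 3.999 ± 0.56, 4.78 ± 0.60 and 4.91 ± 0.59 from centre to row >3 (edgeR adjusted p = 0.00160, 7.12e-04 and 1.85e-04). Hnf4g was also higher in row >3, at 2039, 1159 and 1185 against 398, 694 and 631 (1.29 ± 0.23, adjusted p = 0.00186). Cdx1 was lower in the SI centre (-0.60 ± 0.14, adjusted p = 0.0304). Hnf4a and Cdx2 passed at no level between the sites in the full set. With SI replicate 3 left out, Cdx2 was lower in the SI at all 3 levels (-0.88, -1.004 and -1.19, adjusted p = 3.96e-04, 1.45e-04 and 8.16e-06), and Hnf4a was higher in row >3 (0.42, adjusted p = 0.0306). Of the 16 regulators, 8, 5 and 3 were then lower and 2, 2 and 5 higher in the SI from centre to row >3, and the calls of Gata5, Hnf4g and Cdx1 held. Calls over all genes rose in that fit as well, to 2854, 2121 and 3184, of which 1180, 968 and 1781 were higher.

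The lists of other cell types were read beside these results, and their counts stand beside the same calls over all genes. Of 17 absorptive cell markers, 6, 9 and 10 were higher in the SI at centre, border and row >3, and none was lower, while 2 were lower in the centre with SI replicate 3 left out. Of 8 Paneth cell markers, 6 were higher in the SI at each level, and their summed level was 4501 to 174699 in the SI against at most 248 in the LI. Of 11 immune cell markers, 10 could be tested, none passed in centre or border and 1 (Cd74, an antigen presentation gene that intestinal epithelium can also express) was higher in row >3. Their summed level was 1391 to 12045 in the SI and 122 to 742 in the LI. It rested on the other genes of the list, since 7 of the 11 were below 10 normalised counts in every library. Of the immune list, 2 were higher in centre and border with SI replicate 3 left out. Tyrobp was at 0 in all libraries. Of 8 stromal cell markers, none passed between the sites (1 higher in row >3 without SI replicate 3), and their summed level stayed at or below 371 in every library. Of 9 stem cell markers, 1 was higher in the SI at each level, and 5, 5 and 3 without SI replicate 3. Of 9 tuft cell markers and 8 goblet cell markers, none passed between the sites in the full set. Without SI replicate 3, 4 tuft markers were lower in the centre, and 5 and 6 higher at border and row >3, while 5 goblet markers were lower and 1 higher in the centre, and 1 higher at the border. Of 12 enteroendocrine markers, 1 was higher in row >3, and without SI replicate 3 there were 4 higher there and 1 lower at each level. The part of these cell types in the differences of the 8 members was not tested.

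The genes most like the members over all 18 libraries were named by Pearson correlation of log2 CPM over 12976 genes. The libraries share site, level and the composition of each sort, so the values are a description. For Sis they were Ggt1 (r = 0.968), Gcnt2 (0.967) and Lama3 (0.961). For Slc5a1 they were Apob (0.812) and Dpp4 (0.806), and for Khk Zmiz1 (0.885), Gpt (0.885) and Lrp1 (0.882). Among the members, Lct and Treh were closest (0.888), followed by Sis and Treh (0.827) and Sis and Lct (0.798). Khk was closest to Slc2a5 (0.783), the carrier of its substrate, and Mgam and Slc5a1 were nearly unrelated (0.0706).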

How the data were processed

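RNA of EPCAM+ cells, sorted by GFP from SI and LI crypts with at least 270 pg per sample, was sequenced with stranded libraries. The authors deposited raw counts per gene (mm10) and a table of the same counts divided by 1 size factor per library. These deposited values (unit: signal) gave whole reads for 100% of entries (tolerance 1e-06), equal to the raw counts. Reads had been trimmed with Skewer, then aligned and counted with STAR.

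All 18 libraries and 6 groups, taken from the GEO labels, entered 1 edgeR 4.0.16 fit in R 4.3.3 (TMM factors, genes with a mean count above 0, robust quasi-likelihood without the legacy option, 12 residual degrees of freedom). The 11 contrasts were adjusted by Benjamini-Hochberg over 26717 genes at 0.05. SE is the log2 fold change divided by the root of F, and 95% intervals use 12 degrees of freedom. The main fit used no replicate block because the study's methods give none, so its level comparisons within a site leave out any pairing of libraries. Replicate numbers did pair libraries within a site: deviations from the group means over 10223 genes correlated at 0.358 to 0.783 in the SI and 0.444 to 0.684 in the LI. Across sites, same-numbered libraries correlated at 0.197, 0.271 and 0.184 at the border (replicates 1 to 3), at 0.0196, 0.314 and 0.0798 in the centre and at -0.0296, 0.332 and 0.108 in row >3. Blocked values are therefore read within a site and stand beside a result mainly where they change its call. Between sites they are read at the border only, where every pair was over 0.1. That block was 1 replicate term over all 18 libraries, so its border values also draw on centre and row >3. Same-numbered libraries of other levels correlated at -0.100 to 0.438 across sites, so a pairing of SI with LI was not shown. The study calls the replicates biological.

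The members and lists were chosen with earlier results of these data known. The text names all 8 members, up to 3 genes with the smallest adjusted p per list and comparison, and the 3 genes most like Sis, Slc5a1 and Khk. Some genes and a motif that this rule and the search cover are not reported here. Genes named outside this rule (Lgr5, Gata4 levels, G6pc, Hnf4a, Cdx2, Hoxb13, Hoxd10, Tyrobp) were chosen after their values were seen. The member calls under edgeR's legacy quasi-likelihood option were seen before the present option was taken for the main results. The legacy fit is given as an added alternative. Prac1, 1 of 12 LI markers, was not matched. Positions and exon lengths come from GENCODE M21, promoter windows from RefSeq (GRCm38.p6), and log2 CPM used a prior count of 2 and a mean of at least 1. On simulated counts of 25890 genes for SI row >3 over centre, 4.48% of 2-fold, 67.2% of 4-fold and 100% of 8-fold changes were recovered. DESeq2 1.42.0 and the alternatives of the closing section were run on the same counts.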

Additional observations from a re-analysis of the deposited data

How the results depend on the processing

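How many of the 8 members passed depended on the fit. For SI over LI in the centre 1 passed, against 3 with a replicate block spanning both sites (where not every pair of centre libraries deviated together), 3 with all SI replicate 3 libraries left out, 2 with a fit of only the groups compared, 4 with DESeq2 and 0 with edgeR's legacy quasi-likelihood fit, an alternative chosen after seeing the data. Leaving out 1 library at a time gave 0 to 2, with 0 without centre SI replicate 1, LI replicate 2 or LI replicate 3. Over all genes the centre calls were 532 in the main fit, 1499 with the block and 2854 without SI replicate 3. They were 625 with only the groups compared, 1229 with DESeq2 and 379 with the legacy fit. At the border 1 passed, against 3 with the block, 2 without SI replicate 3, 2 after filterByExpr and 4 with DESeq2. Over all genes these fits called 468, 1141, 2121, 678 and 1212. Leaving out single libraries gave 0 to 2 members, with 0 without any one LI border library. In row >3, 4 passed, 2 with only the groups compared (1092 and 910 genes over all) and 3 to 4 with a library left out. From centre to row >3 in the SI 2 passed, against 4 with the block within the site, where numbers paired the libraries (over all genes 3518 and 6103), and 1 each with library size only, DESeq2 and the legacy fit. It was 0 with only the groups compared and 0 to 3 with a library left out (0 without centre replicate 2 or row >3 replicate 1). Over all genes DESeq2 called 4177, the legacy fit 2953 and the fit of only the groups compared 2557. From border to row >3 in the SI 0 passed and 1 with the block (429 and 2612 genes). The other comparisons gave 0 under every alternative run. The cause of these changes was not tested.

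The alternatives were tallied for 35 differences or changes of members other than Slc2a2, and not for every comparison. Of the 578 values, 509 kept their direction and their side of the threshold, 24 newly passed, 30 no longer passed and 15 changed sign. All 15 belong to Slc5a1, Slc2a5, Khk and Mgam, and to differences that did not pass. With SI replicate 3 left out, SI over LI turned to -0.11 for Khk in the centre and -0.25 for Slc2a5 at the border. Slc5a1 at the border became 0.0043 with RLE factors and 0.0021 with DESeq2. Leaving out single libraries moved SI over LI in the centre from -0.41 to 0.17 for Slc2a5 and from -0.13 to 0.47 for Khk. At the border the ranges were -0.24 to 0.15 for Slc5a1, -0.31 to 0.48 for Slc2a5 and -0.012 to 0.80 for Khk, and in row >3 -0.15 to 0.62 for Slc5a1. From centre to row >3 in the SI they were -0.53 to 0.096 for Mgam and -0.15 to 0.62 for Slc5a1. Outside the tally of 35, signs changed as well, in values that did not pass. From centre to border in the SI, Lct went from -0.26 to 0.22 without SI replicate 3. The site difference of this step went from -0.17 to 0.11 for Treh with the replicate block. That of the change from centre to row >3 went from 0.11 to -0.15 for Slc2a2 without SI replicate 3. Reads recovered from the normalised table, a further alternative chosen after seeing the data, changed no count of members by over 1.5 times. With 3 libraries a group, the simulated 2-fold changes were rarely recovered, and the counts of Slc2a2 and of Treh in the LI limit what can be said of them.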
